A study of Mus musculus with 2 samples.

Results

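The genes described here are those named as genes of the cytoplasmic ribosome's proteins. They were chosen by symbol, as genes named Rpl or Rps and a number together with Rpsa, Rplp0, Rplp1 and Rplp2, leaving out symbols with the pseudogene ending -ps and the S6 kinases. The rule found 85 genes among the 24091 listed, of which 52 belong to the large subunit and 33 to the small subunit. They include 8 paralogues (Rpl3l, Rpl7l1, Rpl10l, Rpl22l1, Rpl32l, Rpl39l, Rps4l and Rps27l), and the other 77 are called core members below. GENCODE annotates 83 of the 85 as protein-coding and types Rpl32l and Rps4l as processed pseudogenes, which the symbol rule did not remove.

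The cytoplasmic ribosome joins a small subunit, which reads the mRNA, to a large subunit, which forms the peptide bond and passes the growing chain through an exit tunnel. Each subunit is built from ribosomal RNA and a fixed set of proteins, most of them present in a single copy, so cells make these proteins in matched amounts. Their mRNAs are among the most abundant in most cells and typically begin with a run of pyrimidines, the 5′ terminal oligopyrimidine tract, through which growth signals control their translation. Primary adipocytes are fat cells taken from tissue rather than grown as a line.

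The data were 2 libraries of polyadenylated RNA from C57BL/6 mice, 1 labelled no radiation (the sham-irradiated group, called sham) and 1 labelled radiation (the irradiated group, pelvic irradiation). The labels give 7.5 Gy and 5 days without saying whether the dose was daily or total, and both sample titles also name PBS. Gonadal fat was taken 2 months after radiation, and the floating cells released by collagenase were kept in culture for 3 days. Age, sex and the number of mice per library are not stated in the labels. With 1 library per group there was no replicate and no test, so every difference below is a difference between these 2 libraries.

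Levels are given as FPKM, the number of fragments scaled to the length of a gene and the depth of its library, which allows genes of different length to be compared. A difference is the deposited log2(FPKM + 0.1) value of the irradiated library minus that of the sham library, and a negative difference means a lower level in the irradiated library. The depth recovered from the values was 30590000 fragments in the sham and 34990000 in the irradiated library. A gene was kept if its FPKM reached 1 in either library, which left 11253 genes and 81 of the 85 ribosomal protein genes. The counting interval of a difference is the exact 95% binomial interval (Clopper-Pearson) of the ratio of fragments. It covers counting error only, and variation between mice or cultures is not in it.

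The labelled cell type, adipocytes, was not borne out by most of its markers. Of 10 adipocyte markers, 7 did not reach an FPKM of 1 in either library, among them Adipoq at 0.133 and 0.232 in the sham and irradiated library, and Plin1 at 0.254 and 0.478, whereas Fabp4 stood at 96.9 in both. The summed FPKM of 7 fibroblast and progenitor markers was 3551 in the sham and 2841 in the irradiated library, with 5 of the 7 lower. The collagen genes Col1a1 (1937 and 1428) and Col3a1 (873 and 694) made up most of this sum and of its fall. Dcn was nearly level (549 and 552), and Dpp4 was higher (0.886 and 1.24, 0.44). The summed FPKM of 7 macrophage markers was 559 and 582, with 5 of 7 higher. That of 5 mesothelial markers was 27.2 and 34.0, with 4 of 5 higher. Single abundant genes carried the macrophage and mesothelial sums, Lyz2 (443 and 410.05) and Wt1 (20.4 and 18.7). The median differences were 0.38 over the macrophage and 1.37 over the mesothelial markers, with C1qa at 0.80 and Msln at 2.18. The mesothelial median is that of Upk3b, on 37 and 121 fragments. Upk3b (0.597 and 1.70), Krt19 (0.814 and 2.41) and Msln (0.520 and 2.71) were under an FPKM of 1 in the sham library. They passed the filter only through the irradiated library, so their differences are between low levels. The sums of 4 endothelial markers were 34.7 and 37.4, and those of 4 lymphocyte markers, 3 of them below the filter, were 5.97 and 6.90. These marker levels differed between the same 2 libraries as the ribosomal protein genes did, and their part in the differences below was not tested.

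Ribosomal protein genes were slightly lower in the irradiated library in nearly every case. Of the 81 kept, 73 were lower, 5 were higher and 3 had the same deposited value, whereas 44.0% of all genes kept were lower and 53.5% were higher. The median difference was -0.08, a median change in FPKM of -5.39%, with quartiles of -0.11 and -0.04, against a median of 0.02 and quartiles of -0.08 and 0.14 over all genes kept. The deposited values have 2 decimals, so that a difference can be off by up to 0.01, and 71 members were lower and 4 higher by more than that. In bulk RNA, fewer cells of a type and less of an mRNA per cell cannot be told apart.

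The differences were small as well as mostly in the same direction, though not equal in size. A difference of at least 0.25 was reached by 1 member downwards and 2 upwards, against 6.04% and 13.8% of all genes kept, and all 3 of these members were paralogues, Rpl32l being an annotated pseudogene. No kept member differed by 1 or more in either direction, which 0.373% of all genes kept did downwards and 0.791% upwards. The counting interval lay below 0 for 55 members (67.9%) and above 0 for 2 (2.47%), while over all genes kept the shares were 15.9% and 22.3%. The remaining 24 members had an interval that reached 0 once 0.01 was allowed for rounding. Abundant genes have narrow counting intervals, so these shares also depend on level. Among the other 449 genes whose FPKM reached 100 in either library, 50.8% were lower, 35.6% had an interval below 0 and 34.5% had one above 0, and their median difference was -0.01.

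**Figure D1:**
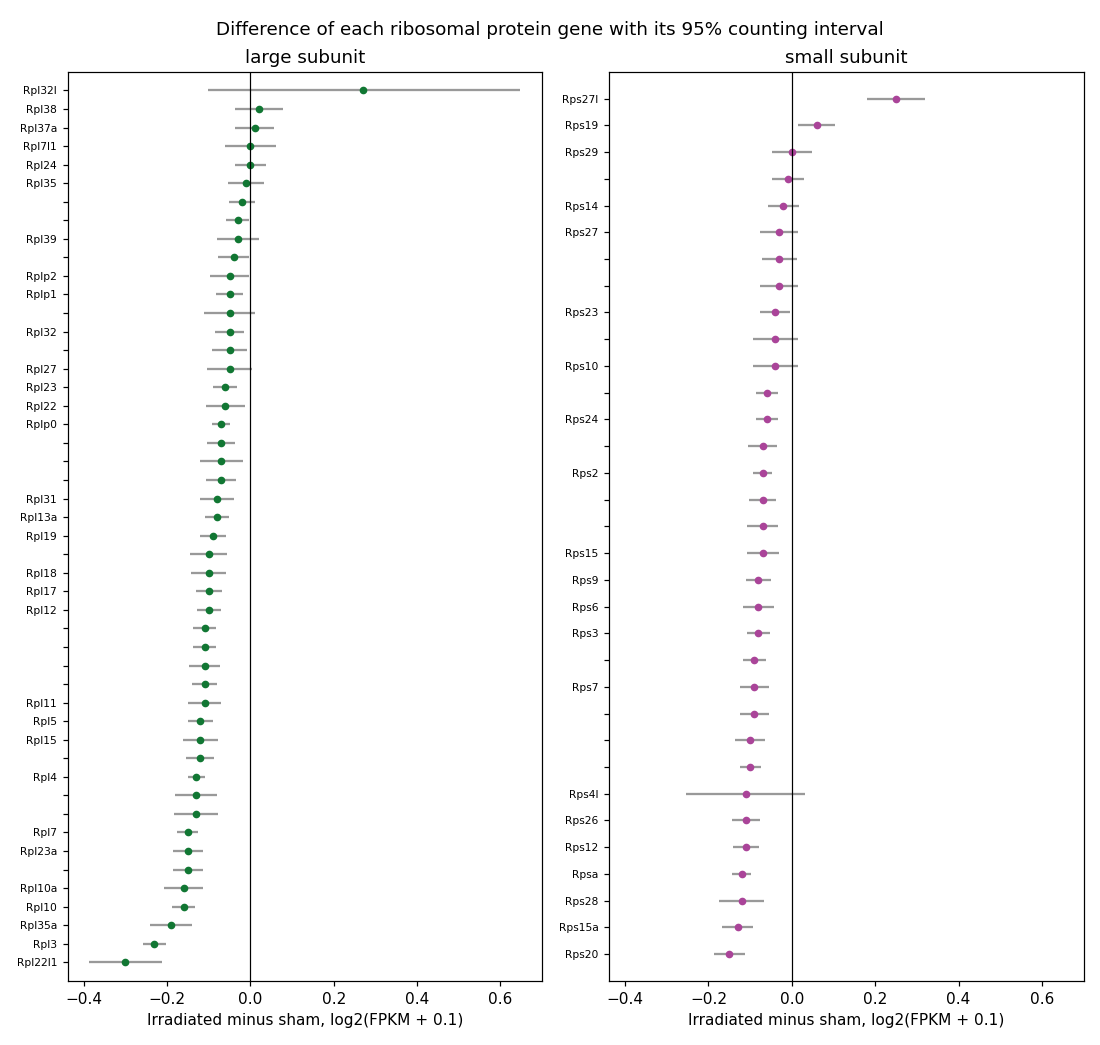
Difference in log2(FPKM + 0.1), irradiated minus sham, of each kept ribosomal protein gene by subunit, with lines for the 95% counting interval, 1 library per group and the genes described in the text labelled. The points lie mostly between 0 and -0.15 in both subunits, and the paralogues Rpl22l1 (-0.30), Rps27l (0.25) and Rpl32l (0.27) stand farthest out.

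**Figure D2:**
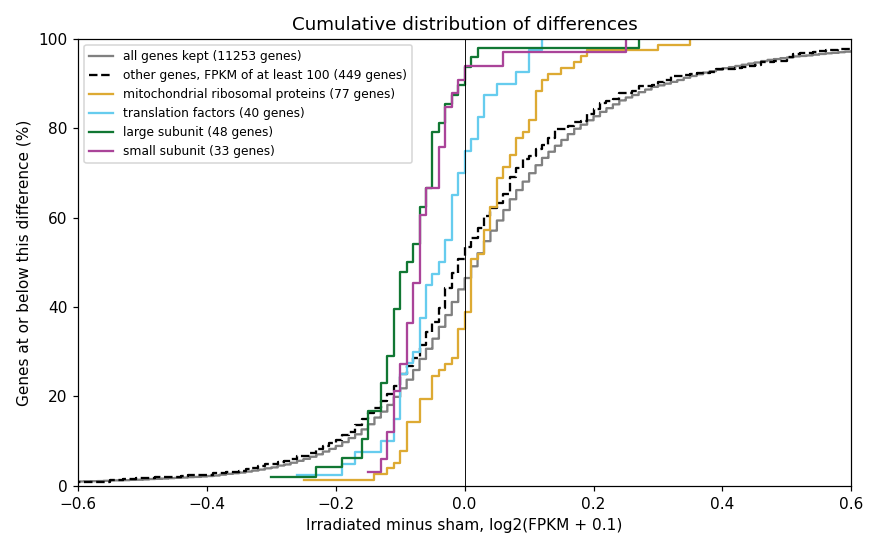
Cumulative share of genes (%) against the difference in log2(FPKM + 0.1), irradiated minus sham, with 1 curve each for the large subunit, the small subunit, translation factors, mitochondrial ribosomal proteins, other genes whose FPKM reached 100 and all genes kept. The curves of both subunits are steep and lie to the left, with medians of -0.085 and -0.07 against -0.035, 0.01, -0.01 and 0.02 for the others in the order named.

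The large and small subunits differed little from each other. In the large subunit, 43 of 48 kept genes were lower and 3 were higher, 34 had an interval below 0 and none had one above 0, and the median difference was -0.085. In the small subunit, 30 of 33 were lower and 2 were higher, 21 had an interval below 0 and 2 had one above 0, and the median was -0.07. The difference between the medians was -0.015, near the 0.01 that rounding alone allows. Among core members, 42 of 45 kept in the large subunit and 29 of 31 in the small subunit were lower, with medians of -0.09 and -0.07.

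As a share of all fragments on listed genes, the members took 3.882% in the sham library (1030874 of 26554350 fragments, exact 95% binomial interval 3.87% to 3.89%). In the irradiated library they took 3.652% (1110984 of 30419010 fragments, interval 3.65% to 3.66%), a ratio of 0.941. The large subunit accounted for 2.281% and 2.132% of fragments and the small subunit for 1.601% and 1.520%, which gave ratios of 0.935 and 0.949. Of the 100 genes of highest FPKM, 43 were ribosomal protein genes in the sham and 41 in the irradiated library.

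Among large subunit proteins, the stalk that recruits elongation factors is formed by Rplp0, Rplp1 and Rplp2 with Rpl12 at its base. Rplp1 was among the most abundant core members, at an FPKM of 1017 in the sham and 982 in the irradiated library (difference -0.05). Rplp0 stood at 755 and 719 (-0.07), Rplp2 at 504.9 and 488 (-0.05) and Rpl12 at 962 and 898 (-0.10). All 4 were lower, beside 90.1% of all members kept. The counting interval lay below 0 beyond rounding for 3 of the 4, beside 67.9% of all members kept, the exception being Rplp2.

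Rpl5 and Rpl11 bind the 5S ribosomal RNA and, when free of the ribosome, the p53 regulator Mdm2. Rpl5 was at an FPKM of 292 and 269 in the sham and irradiated library (-0.12, counting interval -0.15 to -0.09), and Rpl11 was at 588 and 545 (-0.11, interval -0.15 to -0.07). Rpl23 and Rps7, which are also known to bind Mdm2, differed by -0.06 and -0.09, from 468 to 449 and from 427 to 402. All 4 Mdm2-binding members were lower with an interval below 0. Of all members kept, 90.1% were lower and 67.9% had an interval below 0.

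Proteins that line the end of the exit tunnel, where the new chain emerges, had differences from -0.15 to -0.01. Rpl23a, a docking site for factors that act on the chain, was at 704 in the sham and 635 in the irradiated library (-0.15). Rpl17 was at 666 and 622 (-0.10), Rpl19 at 675 and 635 (-0.09) and Rpl31 at 215 and 204 (-0.08), and these 4 had intervals below 0. At the other end stood Rpl39, at 461 and 452 (-0.03), and Rpl35, at 605 and 600.4 (-0.01), whose intervals reached 0. The seventh gene of this group, Rpl26, was listed at 0 in both libraries.

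The 4 largest negative differences of core members were in the large subunit. Rpl3, a protein near the peptidyl transferase centre, went from 375 in the sham to 319 in the irradiated library (-0.23, interval -0.26 to -0.20). Rpl35a went from 340.04 to 298 (-0.19, interval -0.24 to -0.14). Rpl10, which joins the subunit late in its assembly, was at 803 and 719 (-0.16), and Rpl10a was at 208 and 186 (-0.16). Rpl4 had the most fragments of any core member, 37970 and 39688, and differed by -0.13.

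On the small subunit, Rps2, Rps3, Rps9, Rps15 and Rps23 sit where the mRNA enters and is decoded. Their differences lay close together, from -0.08 for Rps9 (419 in the sham and 396 in the irradiated library) and Rps3 (156 and 148) to -0.04 for Rps23 (671 and 652). Rps2 was at 843 and 803 and Rps15 at 537 and 512, each with a difference of -0.07. All 5 were lower, and only the interval of Rps23 reached 0 once rounding was allowed for. The shares over all members kept were 90.1% lower and 67.9% with an interval below 0.

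At the mRNA exit and on the platform, Rps26 had the highest mean level of the core members per deposited gene length, with an FPKM of 1045 in the sham and 969 in the irradiated library (-0.11). Rpsa stood at 446 and 410.05 (-0.12) and Rps28 at 541 and 498 (-0.12). Rps14 was nearly level at 579.9 and 572 (-0.02), and its interval reached 0. Rps6, the protein that the S6 kinases phosphorylate, was at 278 and 263 (-0.08, interval -0.12 to -0.04).

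Few members were not lower. Rps19 was the only core member with an interval above 0 as deposited, at 174 in the sham and 181 in the irradiated library (0.06, interval 0.02 to 0.10). Its mutations are a frequent cause of Diamond-Blackfan anaemia, a failure of red cell production. The interval of Rps19 no longer counted as above 0 once the median of all genes (0.02) was subtracted. The same held when the libraries were scaled without the 100 genes of highest FPKM. Rpl38 (404 and 410.05, 0.02) and Rpl37a (391 and 393, 0.01) were higher by no more than the median of all genes, and their intervals reached 0. Rps29 had the same value of 560.2 in both libraries and Rpl24 the same value of 508.

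Of 15 genes in which mutations are known in Diamond-Blackfan anaemia, 14 were kept, 12 were lower, 1 was higher and 1 was equal, and the median difference was -0.08. The intervals of 9 lay below 0 and that of Rps19 lay above 0 as deposited. Over all members kept, 90.1% were lower, 67.9% had an interval below 0 and the median was -0.08. Besides those described above, Rpl15 was at 157 in the sham and 145 in the irradiated library (-0.12) and Rps24 at 159 and 152 (-0.06). The intervals of the smaller differences reached 0, as for Rpl27 (245 and 237, -0.05), Rps10 (300.1 and 292, -0.04) and Rps27 (416 and 407, -0.03).

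The paralogues were more varied than the core members. Paralogues are extra genes that arose by copying a ribosomal protein gene, and some of their proteins can take the place of the parent protein in the ribosome. Among the 3 coding paralogues kept, Rpl22l1 was lower, Rps27l was higher and Rpl7l1 was equal. The SD of the differences was 0.275 over these 3 genes and 0.050 over the 76 core members kept.

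Rps27l, which is known as a target of p53, was at 163 in the sham and 194 in the irradiated library (2958 and 4023 fragments). Its difference of 0.25 (interval 0.18 to 0.32) was opposite in sign to the -0.03 of its parent Rps27. The ratio of Rps27l to Rps27 was 0.392 in the sham and 0.476 in the irradiated library, a change of 0.28 on the log2 scale (large-sample 95% counting interval 0.20 to 0.36). Scaling of the libraries cancels in such a ratio, whereas the difference of Rps27l itself stayed positive but was under 0.25 when the median of all genes was subtracted. The coding sequences of the pair are shown because fragments can be assigned to either gene only where the bases differ. Both have 255 bases and share 194 of them, an identity of 76.1%. The sequences are from the GENCODE annotation on GRCm38, with the exons of Rps27 at chr3:90212522-90213651 on the minus strand and those of Rps27l at chr9:66946086-66949516 on the plus strand, and capitals mark the bases that differ between them.
Rps27: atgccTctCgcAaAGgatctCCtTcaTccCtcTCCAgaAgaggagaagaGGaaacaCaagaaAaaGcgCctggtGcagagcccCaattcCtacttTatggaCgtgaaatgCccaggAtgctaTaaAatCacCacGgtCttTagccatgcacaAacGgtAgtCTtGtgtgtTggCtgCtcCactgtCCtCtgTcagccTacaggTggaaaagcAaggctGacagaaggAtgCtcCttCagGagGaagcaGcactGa
Rps27l: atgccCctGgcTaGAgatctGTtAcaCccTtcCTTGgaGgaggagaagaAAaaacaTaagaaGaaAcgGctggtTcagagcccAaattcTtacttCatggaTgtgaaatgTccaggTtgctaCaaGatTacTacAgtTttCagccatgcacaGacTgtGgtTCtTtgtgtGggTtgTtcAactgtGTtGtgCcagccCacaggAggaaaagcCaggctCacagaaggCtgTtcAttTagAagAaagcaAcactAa
The differing bases were spread along the whole length of the pair.

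Rpl22l1, the paralogue of Rpl22, had the largest negative difference of any kept member. It was at 155 in the sham and 126 in the irradiated library (2247 and 2088 fragments, -0.30, interval -0.39 to -0.21), while Rpl22, at 90.4 and 86.7, differed by -0.06. Rpl22l1 was thus more abundant per length than its parent in both libraries, with a ratio of 1.72 in the sham and 1.45 in the irradiated library. The change of the ratio was -0.24 on the log2 scale (interval -0.34 to -0.14). The 2 coding sequences, of 369 and 387 bases, were identical over 66.9% of aligned positions.

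The other paralogues were low. Rpl7l1 was at 41.0 in both libraries, and because Rpl7 was lower (898 and 809, -0.15) the ratio of the pair changed by 0.15 (interval 0.08 to 0.22). Of the annotated pseudogenes, Rps4l was at 27.0 and 25.01 (-0.11, interval -0.25 to 0.03). Rpl32l was at 5.80 and 7.01, on 105 and 145 fragments, and its difference of 0.27 had an interval of -0.10 to 0.65. Rpl3l and Rpl10l, which are known for expression in muscle and testis, were listed at 0 in both libraries, and Rpl39l had 0 and 3 fragments. A count of 0 allows up to 3 fragments, which for a gene of 1 kb is an FPKM of 0.0981 (sham) and 0.0857 (irradiated).

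**Figure D3:**
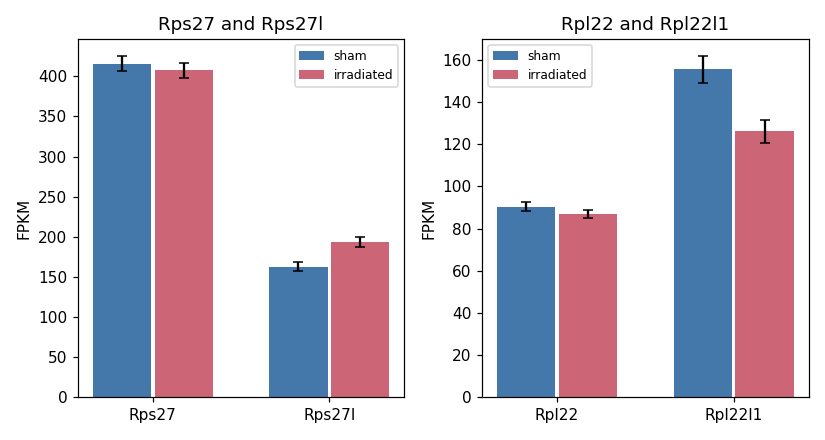
FPKM on a linear axis of Rps27 and Rps27l and of Rpl22 and Rpl22l1 in the sham and irradiated library, with bars of 1 library each from 0 and error bars for the 95% counting error of the fragments only. Rps27l is higher in the irradiated library (163 and 194) beside a nearly level Rps27 (416 and 407), and Rpl22l1 is lower (155 and 126) and above Rpl22 in both.

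Core members did not have equal FPKM values, although most of their proteins are present in a single copy per ribosome. In the sham library they ran from an FPKM of 71.9 to 1045 with a median of 466, and in the irradiated library from 65.7 to 982 with a median of 453, a range of 14.5-fold and 14.9-fold. By the mean of both libraries and per deposited length, the most abundant included Rps26 (1045 and 969), Rplp1 (1017 and 982), Rpl12 (962 and 898) and Rpl32 (873 and 843), and the first 2 of these changed places between the libraries. By the same mean, the lowest were Rps15a (71.9 and 65.7), Rpl22 (90.4 and 86.7), Rps20 (109.8 and 98.9), Rpl18 (111 and 103) and Rpl15 (157 and 145). The levels kept their order between the libraries, with Pearson's r of 0.998 and Spearman's rho of 0.998 across the 76 genes, which share both libraries and gene lengths. Per deposited length the medians of the subunits were close, 468 for the large and 465 for the small subunit in the sham and 452 and 455 in the irradiated library.

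**Figure D4:**
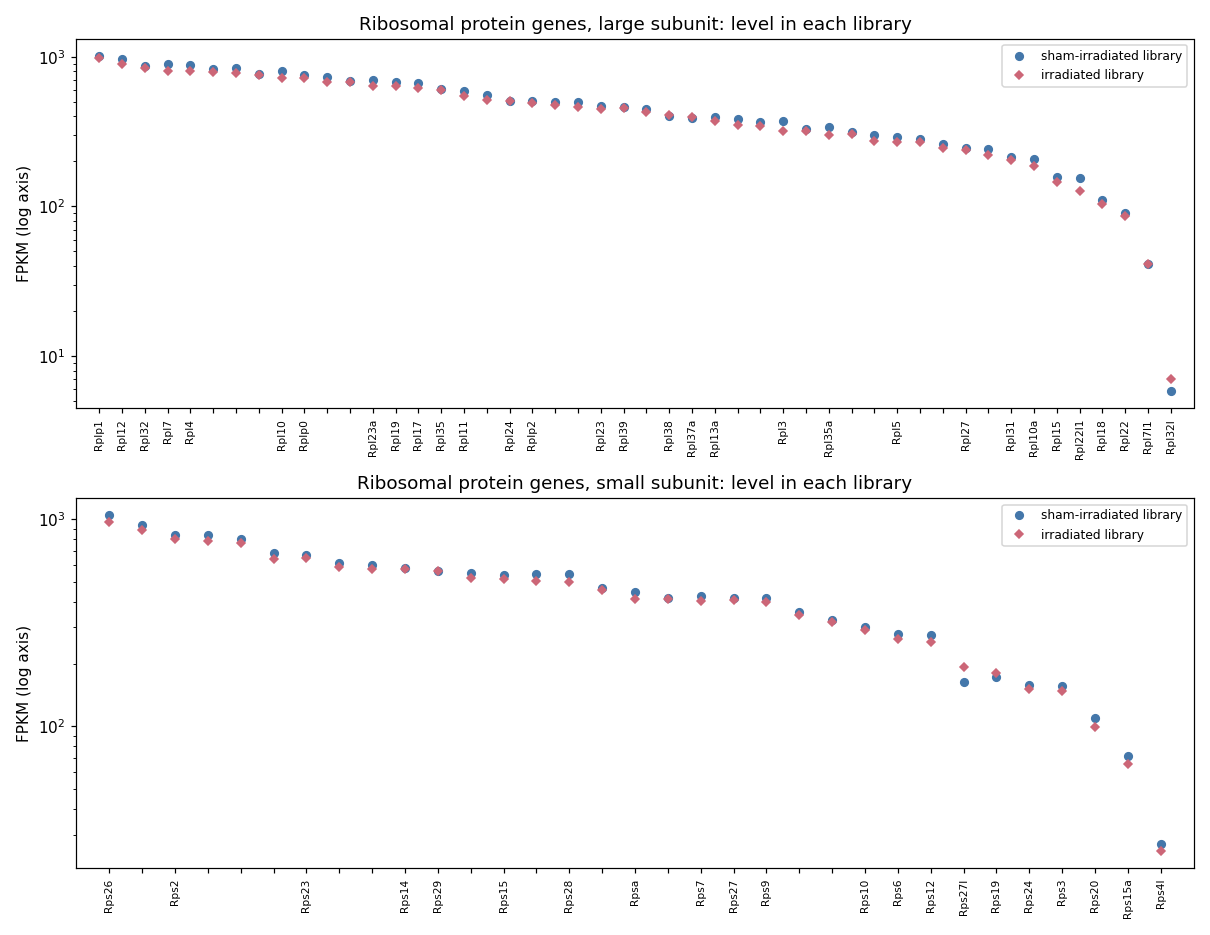
FPKM on a log axis of each kept ribosomal protein gene in the sham (circles) and irradiated (diamonds) library, by subunit and in order of mean level, with the genes described in the text labelled. Core members lie between 71.9 and 1045 in the sham and between 65.7 and 982 in the irradiated library, and the levels of a gene in the 2 libraries lie close together.

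The gene length used for the FPKM was related to the level. Longer genes had lower levels across the 76 core members (r = -0.642, rho = -0.441 in the sham library), which share the library and the length itself as divisor. For 9 members the deposited length was at least 2 times the median of the coding transcripts in the GENCODE annotation, with ratios of 8.34 for Rps24, 4.70 for Rpl18, 4.45 for Rps3, 3.66 for Rps12 and 3.32 for Rpl13a. Per median length of the coding transcripts, an alternative chosen after the values were seen, the SD of the log2 levels was 0.746 in place of 0.859 in the sham library, and the range was 18.4-fold. Rps15a (71.9 and 65.7), Rps20 (102 and 91.9) and Rpl22 (109.96 and 105) were then still the lowest 3, but other ranks changed. For Rps15a and Rps20 the coding transcript length was itself 5.13 and 3.706 kb. Their fragments in the sham library, 11281 and 11561, were near the core median of 11787.5. Their low levels, and with Rps15a the low end of the range, thus depend on the length used. Rps24 (1323 in the sham library) and Rpl13a (1316) became the highest, Rps26 was at 682 in place of 1045 and Rpl18 at 519.97 in place of 111. The subunit medians also moved apart, to 490.2 for the large and 556 for the small subunit in the sham and 471 and 556 in the irradiated library.

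**Figure D5:**
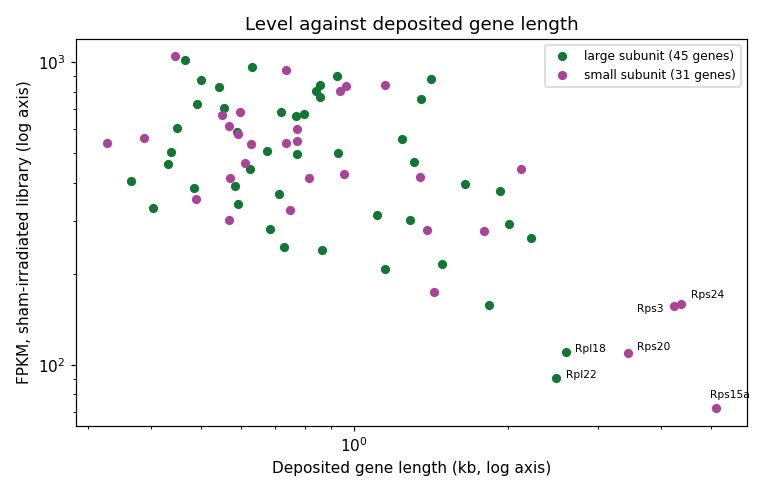
FPKM of each core member in the sham library against deposited gene length in kb, both on log axes, with large and small subunit genes in separate colours. Longer genes lie lower (r = -0.642 with the log of length across 76 genes), and Rps15a, at 71.9, is the lowest.

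Length also went with the difference, though weakly (r = -0.326, rho = -0.381). All 13 core members of at least 1.5 kb were lower, with a median of -0.11, and 58 of the 63 shorter ones were lower, with a median of -0.07. These are deposited lengths, and several of the 13 are long only by them. Among those are Rpl18, Rps3, Rps12, Rpl13a and Rps24, the last with 4.38 kb deposited and 0.525 kb for its coding transcripts. The relation was not computed with the lengths of the coding transcripts. The medians of other genes whose FPKM reached 100 ran the same way but nearer to 0, at -0.01 over 313 genes of at least 1.5 kb and 0.015 over 136 shorter genes. With the length trend removed, the median over all members was -0.10 and 77 were lower. The part of length in the differences among members was not tested.

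The pyrimidine tract was looked for at the annotated starts because it is the feature through which these mRNAs are controlled. It was defined as a C followed by at least 4 letters that are each C or T, beginning within 5 bases of a RefSeq start on the coding strand (assembly GRCm38.p6). Of the members, 64 had an entry in the table of promoters. The tract was found in 27 of 57 core members with an entry (47.4%), beside 21.2% of all 27025 genes of the table and 23.7% of the genes kept here. The shares were 47.1% in the large subunit and 47.8% in the small subunit, and translation factors (19.4%) and mitochondrial ribosomal proteins (24.6%) were near all genes. A run of C and T that begins farther from the annotated start, as in Rps12, was not counted. The shares therefore cover tracts at annotated starts only and do not show that the other mRNAs lack one. Windows of 30 bases, 10 before the start and 20 from it, show the tract in capitals for 4 core members, for Rps27l beside its parent and for Rpl22l1. A gene with several annotated starts was counted if any of them had the tract, and for Rpl35a 2 of 3 starts and for Rps27l 1 of 2 starts had none and are not shown.
Rps26, chr10:128626487-128626516, minus strand: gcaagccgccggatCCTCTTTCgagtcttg
Rps6, chr4:86857348-86857377, minus strand: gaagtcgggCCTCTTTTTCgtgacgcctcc
Rplp2, chr7:141447641-141447670, plus strand: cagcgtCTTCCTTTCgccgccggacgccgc
Rpl35a, chr16:33056472-33056501, plus strand: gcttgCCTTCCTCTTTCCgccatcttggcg
Rps27, chr3:90213629-90213658, minus strand: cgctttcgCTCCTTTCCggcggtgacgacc
Rps27l, chr9:66946076-66946105, plus strand: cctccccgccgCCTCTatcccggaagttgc
Rpl22l1, chr3:28805498-28805527, plus strand: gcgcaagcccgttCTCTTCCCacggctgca
The tract of Rps27l is the shortest of these 7, with 5 letters against 9 in Rps27. Among kept core members with an entry, those in which the tract was found had a median difference of -0.08 (26 of 27 lower). Those in which it was not found had a median of -0.07 (26 of 29 lower). Because the second group can hold tracts farther from the annotated start, these values do not compare mRNAs with and without a tract.

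Other genes of the translation machinery were set beside the ribosomal proteins. Core ribosomal proteins that the naming rule leaves out differed less than the median member, with Rack1 at 252 in the sham and 249 in the irradiated library (-0.02) and Fau at 212 in both (0.00). The intervals of both reached 0. Mitochondrial ribosomal proteins, which belong to the separate ribosome of the mitochondrion, did not show the lower levels, since 27 of 77 were lower and 47 higher with a median of 0.01. The largest difference among them was that of Mrps6, at 21.0 and 26.8 (0.35, interval 0.19 to 0.52).

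Translation factors lay between, with 28 of 40 lower, 10 higher and a median of -0.035, and their intervals lay below 0 for 17 and above 0 for 3. Eef1a1, the elongation factor that delivers tRNA to the ribosome and whose mRNA is known to begin with a pyrimidine tract, had the largest difference, from 3717 in the sham to 3104 in the irradiated library (-0.26, interval -0.27 to -0.25). Factors of ribosome biogenesis were evenly split, with 21 of 44 lower, 19 higher and a median of 0.00, and Gar1, a protein of RNA-modifying particles, differed most (21.5 and 18.8, -0.19). Subunits and factors of RNA polymerase I, which makes ribosomal RNA, were lower for 9 and higher for 5 of 14, and Taf1c differed most (1.62 and 2.06, 0.33). Of 17 regulators of ribosomal protein mRNA, 9 were lower and 6 higher, and Eif4ebp2, an inhibitor of translation initiation, differed most (26.3 and 21.0, -0.32).

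Some of the values rest on genes that are hard to count. Rpl26 was listed at 0 in both libraries, and on the same strand its locus is overlapped by Gm15772, which is described as an L26 pseudogene and was listed at an FPKM of 0.326 and 0.332. How the authors assigned fragments to overlapping genes is not stated, so the value of 0 does not show that Rpl26 was not expressed. Of the 81 members kept, 46 overlap another listed gene by position, and among the 35 that do not, 30 were lower with a median of -0.07. Some of these overlaps are with rows that span much of a chromosome, as Rpl19 with Mir5098 (chr11:28127351-119928917, listed at 0 in both libraries). Others are with small RNA genes inside the member, as Rpl13a with Snord34 (0 in both). Such an overlap does not by itself show that a member was hard to count. GENCODE names 300 ribosomal protein genes with the ending -ps. Separately, 7 rows of the deposited table carry a symbol with the ending -ps or rt (a retrotransposed copy), with a summed FPKM of 30.6 in the sham and 37.8 in the irradiated library. Fragments that match both a gene and its copies could have been assigned to either or left out.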

How the data were processed

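The 2 libraries analysed were of polyadenylated mouse RNA, and each was assigned to its group from its label. The authors deposited 1 log2 value of FPKM plus 0.1 per gene and library, rounded to 2 decimals, with gene positions and lengths. The submitters' processing notes name the build mm10, and the aligner, the counting tool and its handling of strand and overlaps are not stated there.

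FPKM was recovered by reversing the log. Depth was taken as the total at which FPKM, length and depth gave whole fragments, and 3541 of 3541 and 3495 of 3495 genes with few fragments came out within 0.12 of a whole number. Fragments of abundant genes are approximate because of rounding. An interval was counted as apart from 0 after widening it by 0.01 for rounding. The procedure was tested on simulated data. Differences are on the log2(FPKM + 0.1) scale, and with 1 library per group no p-value was computed.

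Members, gene lists and tests were chosen with earlier results of these data known. Genes named were the 5 highest and 5 lowest differences, the 5 highest and 5 lowest core levels, all paralogues, the role groups and Rps6, with the largest difference of each other list, and the choice of any other gene named was made with its value in view. Some genes that the rule names are not reported here. The positions used for overlaps and chromosomes were those the authors deposited. Gene types, coding transcript lengths and coding sequences with their positions came from GENCODE, and start windows from RefSeq (GRCm38.p6). Alternatives were another pseudocount, other filters, other scalings, removal of a length trend and leaving out overlapping genes. The tools were Python 3.11.15 with pandas 2.3.3, numpy 2.4.6, matplotlib 3.10.9 and SciPy 1.17.1.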

Additional observations from a re-analysis of the deposited data

How the results depend on the processing

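No paired analysis was possible because each group had 1 library, and for the same reason no replicate could be left out. The median difference stayed negative under every alternative run, from -0.10 to -0.07 over all members. The difference of each of the 81 members stayed within its interval in all 324 values computed under 3 scalings and a pseudocount of 1. Each scaling moved all genes by the same amount, at most 0.02 in size, and the pseudocount hardly moves abundant genes. These values could therefore hardly have left the intervals. The median of all genes was 0.02 as deposited, and subtracting it left 3 members higher (1 of the large subunit), 2 lower by at least 0.25 (both of the large subunit), 1 higher by at least 0.25 (0 of the small subunit) and 1 with an interval above 0, with a small subunit median of -0.09. Removing the length trend gave the same 3, 1, 2, 1 and 0 genes and -0.09. Scaling without the 100 genes of highest FPKM left 1 member higher by at least 0.25 (0 of the small subunit) and 1 with an interval above 0. Scaling without the members left 1 and 0 higher by at least 0.25. The call of Rps27l at 0.25 thus depends on scaling while its sign does not. Rps19 lost its interval above 0 both in scaling without the 100 genes and on subtracting the median of all genes. With log2(FPKM + 1), 0 members were higher by at least 0.25. Without a filter, 1 member (Rpl39l) was higher by at least 1 and 2 of the large subunit by at least 0.25. Without overlapping members, fewer genes remained, with 30 lower (17 large, 13 small), 3 higher (1 large), 1 higher by at least 0.25 (0 large) and 24 intervals below 0 (15 large, 9 small). The share of fragments was 4.71% and 4.40% (sham and irradiated) without the other 100 top genes, 1.55% and 1.47% without overlapping members, and 12.6% and 11.9% of summed FPKM. Per median length of the coding transcripts, chosen after seeing the data, the SD of log2 levels of core members was 0.746 and 0.745 in place of 0.859 and 0.863. With 1 library per group, depth limits counting error only, and differences between mice or cultures cannot be told apart from those of radiation.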

Other observations

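The lower levels were not confined to 1 region of the genome. Kept members lie on 19 chromosomes, and the median difference was below 0 on each of them. Several chromosomes hold only 1 or 2 kept members, and 73 of all 81 were lower, so these medians largely restate that count by position. Chromosome 7 holds the most, 14, of which 13 were lower. The 4 X-linked members, Rps4x, Rpl10, Rpl36a and Rpl39, were all lower, with a median of -0.115.

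Regulators of the translation of ribosomal protein mRNA differed in both directions, with 5 of 17 counting intervals below 0 and 3 above 0. Larp1, which binds the pyrimidine tract, was at an FPKM of 49.1 in the sham and 46.4 in the irradiated library (-0.08, counting interval -0.12 to -0.04). The S6 kinase gene Rps6kb1 was at 10.2 and 8.90 (-0.19, interval -0.27 to -0.12). The intervals above 0 were those of Rptor (4.76 and 5.21, 0.13), Tsc2 (11.8 and 12.6, 0.10) and Cnbp (166 and 175, 0.07). The interval of Mtor, the kinase upstream of Larp1 and Rps6kb1, reached 0 (6.72 and 6.82, 0.02, interval -0.07 to 0.11). Myc, a transcription factor that raises ribosomal protein gene expression, was at 30.6 and 31.7 (0.05, interval -0.03 to 0.13). These genes were chosen after their values were seen.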
